A study of Mus musculus with 4 samples.

Results

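Cell cycle and DNA replication genes were followed in the lungs of mice that over-express interleukin-33 (IL-33) and of control mice. The list held 35 genes, picked by name, out of 43346 genes in the table. Of these, 16 act in DNA replication and the entry to S phase (the replication members) and 19 in chromosome condensation, spindle assembly and division (the mitotic members). All 35 were found once, and all 35 passed the filter on low counts that left 20872 genes for testing. None was called between the genotypes, with fitted differences of at most 0.23 on the log2 scale, while the 2 control libraries differed by up to 1.65-fold (E2f1).

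Polyadenylated RNA was sequenced from 4 libraries, named by letters. Libraries D and F came from control mice, and libraries B and E from IL-33 transgenic mice. The genotype labels read IL-33 over-expression and control, whereas the treatment field names IL-33 transgenic mice for all 4 libraries, the controls included. The sources used here do not give the strain, age, sex, the promoter of the transgene or how many mice went into a library, so p-values reflect the spread among the libraries only. Library totals ran from 76120696 (B) to 87723745 counts (E).

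A dividing cell first loads the MCM helicase on its origins of replication with the help of CDC6 and CDT1, and cyclin E with its kinase then starts S phase. The transcription factor E2F1 drives many of the genes needed for this step. Cyclin A, cyclin B and CDK1 carry the cell into mitosis, where Polo-like and Aurora kinases build the spindle and the anaphase-promoting complex ends the division. Most cells of an adult lung are quiescent, and alveolar type 2 cells, endothelial cells and resident macrophages can re-enter the cycle after injury.

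Il33, the gene over-expressed, stood at 117 CPM (counts per 1000000, on scaled library sizes) in D, 108 in F, 1723 in B and 874 in E, in the order of the genotype labels. The material is labelled epithelial cells, while the series title speaks of lung tissue. The 5 general epithelial genes (Epcam, Cdh1, Krt8, Krt18 and Cldn18) summed to 2054 CPM in D, 1447 in F, 2330 in B and 1463 in E. The 6 endothelial genes, Pecam1 and Cdh5 among them, summed to 5328, 7514, 4152 and 6794 CPM in the same order. RNA of endothelial cells was thus abundant in every library.

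The 2 groups of members differ in the letters found around the start sites that were scanned. RefSeq promoters (GRCm38.p6, the assembly the files use, from 250 bases before to 50 bases after the start) were matched by symbol for 28 of the 35 members, 13 replication and 15 mitotic. They had 29 promoters, as Mcm7 had an additional start site. For E2f1, Cdc6 and Mcm7 every window lay wholly inside the gene as placed in the counts. Letters at an outer start site of these genes were therefore not read. A member was counted if any of its promoters held the motif, whereas the shares of all are per promoter. The motifs below were searched on both strands. The first is the CHR (cell cycle genes homology region, TTTGAA), which in textbook accounts is read by the MuvB complexes. The second is the CCAAT box (CCAAT), read by NF-Y. The third is the core of the E2F site (either TTCCCGC or TTCGCGC, or else TTGCCGC or TTGGCGC), whose versions can overlap each other on opposite strands. A CHR was found in 11 of 15 mitotic and 1 of 13 replication members (Mcm2), against 17.9% of all 32851 promoters of this length. The E2F core was found in 8 of 13 replication members and 3 of 15 mitotic ones (Ccnb1, Cdk1 and Mki67), against 9.57% of all promoters. A CCAAT box was found in 14 of 15 mitotic and 8 of 13 replication members, against 37.4% of all promoters. CHR and CCAAT stood together in 11 of the 15 mitotic members and in 6.95% of all promoters. A match is a run of letters, not a measured binding site.

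The stretch from 150 bases before to 30 bases after the start, 180 bases, is printed for 7 members, with matches in capitals. Mcm6 and Rrm1 were the replication members with the highest level per length. Mki67, Cdk1 and Ccnb2 hold the CHR beside CCAAT boxes. Cenpf and Cenpe were the members whose genotype groups did not overlap. Each reads 5′ to 3′ on the strand of its gene.
Mcm6 (chr1:128359676-128359855, minus strand): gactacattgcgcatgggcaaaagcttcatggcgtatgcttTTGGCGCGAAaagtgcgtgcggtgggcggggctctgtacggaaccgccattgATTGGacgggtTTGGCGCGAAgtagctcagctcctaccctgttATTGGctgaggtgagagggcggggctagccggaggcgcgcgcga
Rrm1 (chr7:102441545-102441724, plus strand): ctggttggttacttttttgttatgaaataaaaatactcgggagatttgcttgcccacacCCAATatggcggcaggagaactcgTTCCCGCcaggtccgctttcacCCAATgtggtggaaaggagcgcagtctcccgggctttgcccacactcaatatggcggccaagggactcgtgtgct
Mki67 (chr7:135716350-135716529, minus strand): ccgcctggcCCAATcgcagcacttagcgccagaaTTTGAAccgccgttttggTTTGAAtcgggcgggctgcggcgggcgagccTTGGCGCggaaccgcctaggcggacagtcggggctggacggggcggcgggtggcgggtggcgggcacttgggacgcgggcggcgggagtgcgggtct
Cdk1 (chr10:69352883-69353062, minus strand): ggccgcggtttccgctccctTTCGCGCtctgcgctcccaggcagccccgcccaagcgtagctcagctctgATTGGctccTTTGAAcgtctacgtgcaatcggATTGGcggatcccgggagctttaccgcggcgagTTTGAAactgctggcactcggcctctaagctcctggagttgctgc
Ccnb2 (chr9:70421525-70421704, minus strand): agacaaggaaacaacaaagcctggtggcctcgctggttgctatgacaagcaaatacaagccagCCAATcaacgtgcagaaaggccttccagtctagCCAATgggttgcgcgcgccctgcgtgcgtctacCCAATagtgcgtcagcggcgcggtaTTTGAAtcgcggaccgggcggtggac
Cenpf (chr1:189688057-189688236, minus strand): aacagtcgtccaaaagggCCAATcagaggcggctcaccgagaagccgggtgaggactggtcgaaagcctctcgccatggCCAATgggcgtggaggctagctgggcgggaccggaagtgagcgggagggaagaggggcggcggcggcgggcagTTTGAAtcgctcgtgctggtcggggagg
Cenpe (chr3:135212413-135212592, plus strand): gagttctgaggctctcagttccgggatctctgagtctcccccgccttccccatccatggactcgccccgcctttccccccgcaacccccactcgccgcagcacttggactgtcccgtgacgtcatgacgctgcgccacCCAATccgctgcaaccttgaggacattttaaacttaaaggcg
In Mcm6, each of the 2 capital runs of 10 letters is an overlapping pair of E2F cores, TTGGCGC on one strand and TTCGCGC on the other, and the other 2 runs are CCAAT boxes read on the opposite strand. Rrm1 holds 1 E2F core between 2 CCAAT boxes. Mki67 and Cdk1 each hold 2 CHR matches and 1 E2F core, with 1 and 2 CCAAT boxes. Ccnb2 holds 3 CCAAT boxes before 1 CHR, and Cenpf has 2 CCAAT boxes and 1 CHR. In the Cenpe stretch only 1 CCAAT box was matched.

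Per unit of length, the members were well expressed. The median replication member stood at 11.2 RPKM (reads per 1000 bases and 1000000 reads, as deposited, mean of the 4 libraries) and the median mitotic member at 4.82, against 3.19 for all genes tested. Mcm6 was highest at 16.5 RPKM, at the 85.8th percentile of the genes tested, followed by Rrm1 at 15.002 and Mcm2 at 14.4. The 6 MCM genes, whose products form 1 ring, lay between 11.3 (Mcm7) and 16.5 RPKM. Among mitotic members Cdc20 (11.8 RPKM), Ccnb2 (11.7) and Mki67 (11.2) were highest. The lowest members were Ccne1 at 1.22, Cdc6 at 1.26 and Ccnb1 at 1.61 RPKM. Per length, Ccnb1 thus stood far below Ccnb2, the other B-type cyclin, in each of the 4 libraries. The lengths used were 4217 bases for Ccnb1 and 1541 for Ccnb2. In CPM the gap was narrower: 9.67 against 25.1 in D, 6.68 against 21.7 in F, 7.16 against 19.1 in B and 9.75 against 22.3 in E.

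**Figure D1:**
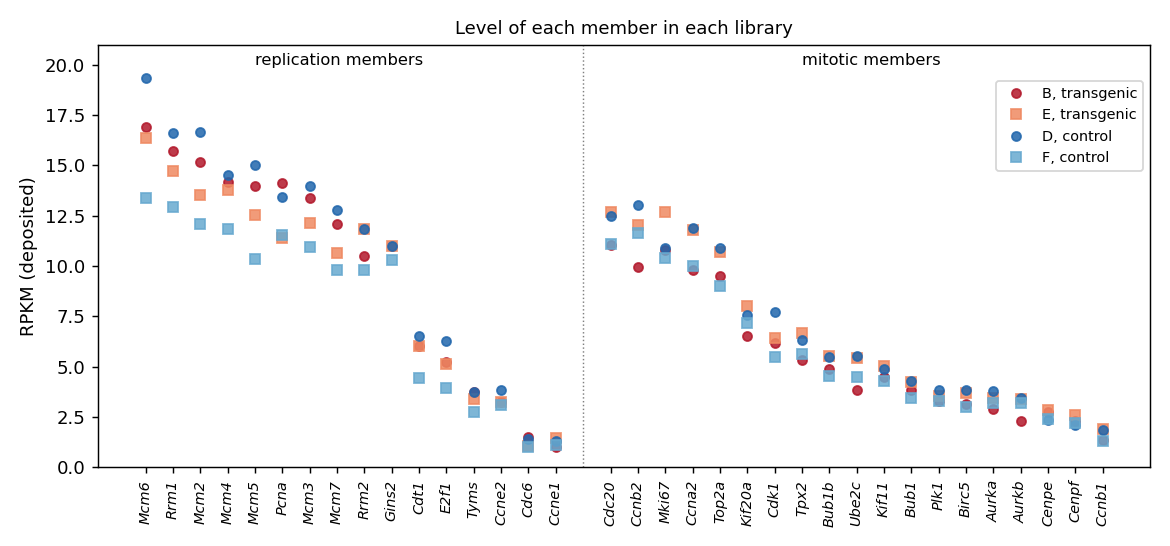
Level of each of the 35 members (x axis, replication members left, mitotic members right, each sorted by mean) in RPKM as deposited (y axis); each point is 1 library, red and orange for transgenic (B, E), dark and light blue for control (D, F). The MCM genes stand between 9.78 and 19.3 RPKM, with control D highest and control F lowest in all 6, so the transgenic points lie between the controls.

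None of the 35 members was called between the genotypes. In edgeR's quasi-likelihood test 0 members passed an adjusted p of 0.05, against a background of 0 of 20872 genes (0%), and all members had an adjusted p of 1. Il33 itself, with a log2 fold change of 3.53 (SE 0.37), was not called in this test either. A missed threshold in these 4 libraries therefore says little about the members. At an unadjusted p under 0.05 there were 0 members, with 187 genes higher (0.896%) and 82 lower (0.393%) among all genes. DESeq2 called 1 gene, limma-voom called 0 genes, and neither called a member. The fitted log2 fold changes (transgenic over control) ran from -0.23 (Aurkb) to 0.22 (Cenpe). The median was 0.03 over the 16 replication members and 0.00 over the 19 mitotic members, beside 0.00 over all genes tested. Of the replication members 14 lay above 0 and 2 below; of the mitotic members 8 lay above and 11 below (49.6% of all genes lay above). In these bulk libraries, a change in the number of cycling cells and a change in RNA of these genes per cell could not be told apart.

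For 2 of 35 members the transgenic libraries were both higher than either control, against 11.9% of all genes, and for 0 of 35 both were lower, against 12% of all genes. The 2 are Cenpe and Cenpf, kinetochore proteins of mitosis. Cenpe, a motor that carries chromosomes to the spindle equator, stood at 23.1 CPM in D, 22.7 in F, 26.7 in B and 26.7 in E. Libraries of 1 genotype were nearly equal here, and the log2 fold change was 0.22 (SE 0.10, 95% interval -0.03 to 0.47, adjusted p = 1 in edgeR's quasi-likelihood test). Cenpf, a large protein of the outer kinetochore, stood at 41.0 CPM in D, 41.6 in F, 44.1 in B and 48.7 in E. Its log2 fold change was 0.17 (SE 0.10, interval -0.10 to 0.43, adjusted p = 1). The gene lengths listed for Cenpe and Cenpf in the table are 7813 and 15433 bases. Mki67 and Top2a, listed with 10075 and 9013 bases, overlapped between the groups.

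**Figure D2:**
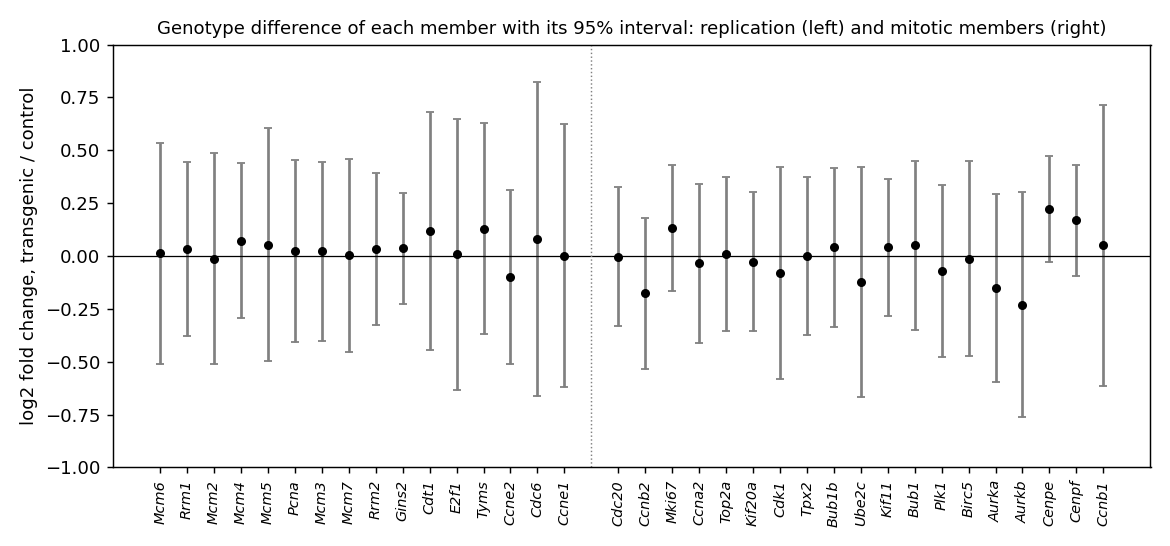
Log2 fold change, transgenic over control, of each member (y axis) with its 95% interval from the edgeR fit (bars) for replication members (left) and mitotic members (right), sorted by level. All 35 intervals include 0; that of Cenpe reaches down to -0.03 and that of Cdc6 up to 0.82.

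The intervals set how large a genotype difference these 4 libraries leave room for. Among replication members they reached from -0.66 to 0.82 on the log2 scale, both bounds being those of Cdc6. Among mitotic members they reached from -0.76 (Aurkb) to 0.71 (Ccnb1). The narrowest were those of Cenpe and of Gins2, a subunit of the GINS complex that activates the helicase (-0.23 to 0.30). A missed threshold therefore does not show equal levels.

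For the members, single libraries of the same genotype differed more than the fitted genotype difference. The fit averages 2 libraries on each side, which by itself makes its difference smaller. The values for all genes are therefore given beside those of the members. The median absolute difference between the controls D and F was 0.41 on the log2 scale for replication members and 0.25 for mitotic members, against 0.15 for all genes tested. Between the transgenic libraries B and E it was 0.16 and 0.18, against 0.20 for all genes. Between the genotypes the median absolute log2 fold change was 0.03 and 0.05, against 0.12 for all genes. For 16 of 16 replication and 17 of 19 mitotic members the genotype difference was smaller than the larger of the 2 differences within a genotype, a condition that 76.8% of all genes tested met. The members held 252 to 13588 counts per library, and the chi-square of D against F averaged 101 per member (1 degree of freedom), so these libraries differed beyond counting error.

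Control D was highest for 26 of the 35 members and control F lowest for 26, where D was highest for 21.2% and F lowest for 24% of all genes tested. D lay above F in 34 of 35 members (48.1% of all genes), and E above F in 34 of 35 (48.2% of all genes). No member was highest in F. The pair of controls thus framed the transgenic libraries for most members. Without D the median log2 fold change was 0.25 for replication and 0.16 for mitotic members, and 27 members then lay higher in both transgenic libraries than in F (30.7% of all genes tested there). Without F the medians were -0.16 and -0.14, and 26 members lay lower in both than in D (27.1% of all genes). In both cases 0 members passed the adjusted threshold. Without B the medians were -0.04 for replication and 0.09 for mitotic members, and without E they were 0.10 and -0.11. The direction of the comparison therefore rested on which libraries were kept, controls and transgenic ones alike.

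**Figure D3:**
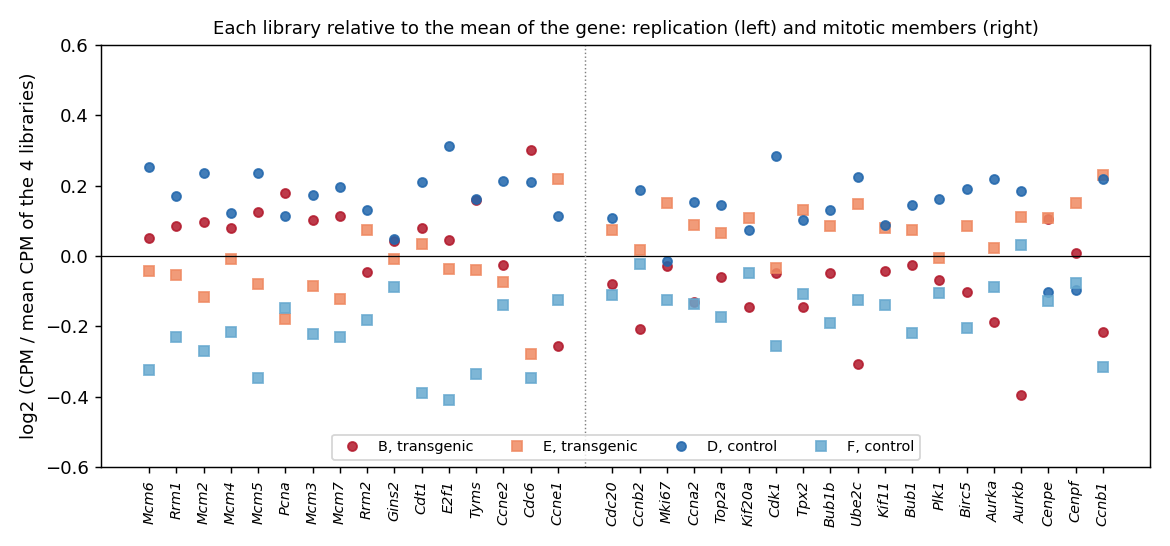
CPM of each library divided by the mean of the 4 libraries, on a log2 scale (y axis), for each member (x axis); circles are B (red) and D (blue), squares E (orange) and F (light blue). D lies highest for 13 of 16 replication and 13 of 19 mitotic members, and F lowest for 14 and 12.

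The helicase genes showed this order most evenly. Mcm6 stood at 113 CPM in D, 75.6 in F, 97.9 in B and 91.8 in E, and Mcm2 at 70.1, 49.4, 63.6 and 54.9. In both, the transgenic libraries lay between the controls, and D was 1.49 and 1.42 times F. Mcm4 stood at 65.1 CPM in D, 51.5 in F, 63.2 in B and 59.5 in E (log2 fold change 0.07, SE 0.14). All 6 MCM genes had the order D, B, E, F. Their log2 fold changes ran from -0.01 to 0.07.

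The origin licensing and loading factors varied more. Cdc6, which loads the helicase with CDT1, stood at 9.34 CPM in D, 6.35 in F, 9.94 in B and 6.66 in E, so that B and D were high and E and F low. Cdt1 stood at 17.9 CPM in D, 11.8 in F, 16.4 in B and 15.8 in E, with F alone low (log2 fold change 0.12, SE 0.22). Gins2 was the steadiest of the replication members, at 56.2 CPM in D, 51.2 in F, 56.0 in B and 54.1 in E. Pcna, the sliding clamp of the polymerases, had a log2 fold change of 0.02 (SE 0.17).

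Of the enzymes that supply nucleotides, Rrm1, the large subunit of ribonucleotide reductase, stood at 82.8 CPM in D, 62.7 in F, 78.0 in B and 70.8 in E. Tyms, thymidylate synthase, stood at 28.6 CPM in D, 20.2 in F, 28.5 in B and 24.8 in E. It had the smallest p of the replication members (log2 fold change 0.13, SE 0.19, adjusted p = 1 in edgeR's quasi-likelihood test). Rrm2, the small subunit that is made in S phase, had a log2 fold change of 0.03 (SE 0.14). For all 3 enzymes D was highest and F lowest.

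E2f1, written out because its spread was the widest of the list, stood at 24.8 CPM in D, 15.025 in F, 20.6 in B and 19.5 in E. D was 1.65 times F, while the log2 fold change between the genotypes was 0.01 (SE 0.25). The cyclin E genes went different ways. Ccne2 stood at 16.7 CPM in D, 13.1 in F, 14.1 in B and 13.7 in E, following the other replication members. Ccne1 stood at 4.31 CPM in D, 3.65 in F, 3.34 in B and 4.63 in E. It was highest in E and lowest in B, unlike every other replication member.

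Among the mitotic cyclins, Ccnb2 stood at 25.1 CPM in D, 21.7 in F, 19.1 in B and 22.3 in E. Library B was lowest and D highest, and the groups overlapped (log2 fold change -0.18, SE 0.14). For Ccna2, cyclin A2, the log2 fold change was -0.03 (SE 0.15), and for Cdk1, the kinase it activates, -0.08 (SE 0.20). For Ccnb1 the value was 0.05 (SE 0.26).

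The Aurora kinases were lowest in library B. Aurkb, of the chromosomal passenger complex, stood at 12.7 CPM in D, 11.4 in F, 8.47 in B and 12.0 in E. The libraries other than B were alike, so the log2 fold change of -0.23 (SE 0.21) rested on B: it was 0.00 without it. Aurka, of the spindle poles, stood at 12.0 CPM in D, 9.74 in F, 9.09 in B and 10.5 in E (log2 fold change -0.15, SE 0.17). Birc5, or survivin, which sits in the complex with Aurora B, had a log2 fold change of -0.01 (SE 0.18). The checkpoint kinase genes Bub1 and Bub1b and the Polo-like kinase gene Plk1 had 0.05 (SE 0.16), 0.04 (SE 0.15) and -0.07 (SE 0.16).

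Mki67, the gene of the Ki-67 antigen used as a mark of dividing cells, stood at 137 CPM in D, 127 in F, 135 in B and 153 in E. E was above the other 3, B and D were alike, and the groups overlapped (log2 fold change 0.13, SE 0.12, 95% interval -0.17 to 0.43). Top2a, topoisomerase IIα, which untangles chromosomes before they part, stood at 123 CPM in D, 98.4 in F, 106 in B and 116 in E (log2 fold change 0.01, SE 0.14). Cdc20, the activator of the anaphase-promoting complex, stood at 29.2 CPM in D, 25.1 in F, 25.6 in B and 28.5 in E (log2 fold change 0.00, SE 0.13). Ube2c, the ubiquitin-conjugating enzyme of that complex, had -0.12 (SE 0.21). The spindle motor genes Kif11 and Kif20a and the spindle assembly factor gene Tpx2 had 0.04 (SE 0.13), -0.03 (SE 0.13) and 0.00 (SE 0.15).

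Replication and mitotic members parted between the 2 transgenic libraries. E lay above B in 19 of 19 mitotic members but in 2 of 16 replication members (Rrm2 and Ccne1), where 49.6% of all genes lay higher in E. The median log2 ratio of E to B was 0.18 for mitotic and -0.12 for replication members. The replication members summed to 770 CPM in D, 572 in F, 718 in B and 651 in E, and the mitotic members to 697, 596, 621 and 700. The mitotic sum was 0.865 of the replication sum in B and 0.905 in D, and 1.07 times it in E and 1.04 times it in F. That balance did not follow genotype: B and D were low and E and F high. With 1 library of each genotype in each pair, no test of it was made.

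**Figure D4:**
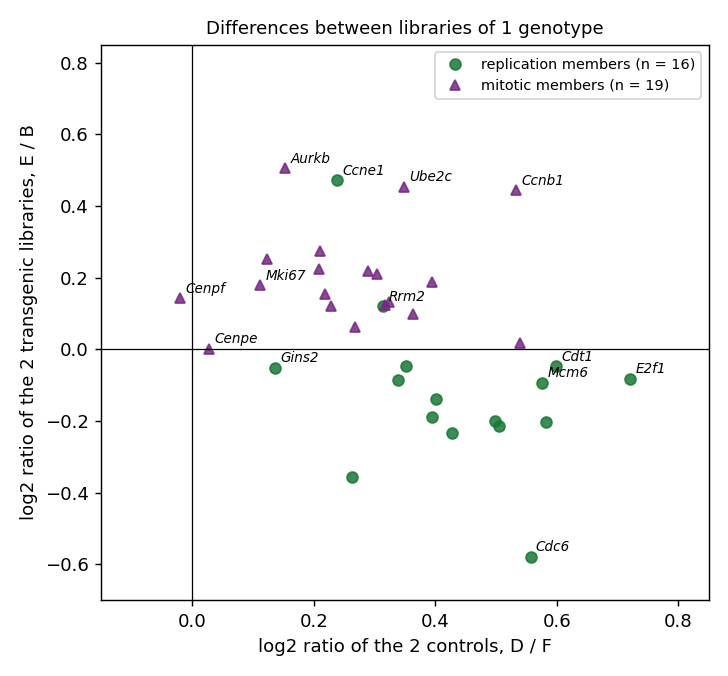
Log2 ratio of the transgenic libraries E and B (y axis) against that of the controls D and F (x axis) for the 16 replication members (green circles) and 19 mitotic members (purple triangles). Nearly all points lie right of 0 (D above F in 34 of 35), while all 19 mitotic members lie above 0 and 14 of 16 replication members below.

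Cell type markers moved with some of these differences, and their part in them was not tested. Of the 5 epithelial genes 5 were higher in D than in F and 0 were higher in E than in B, with 0 of 5 separated between genotypes. The endothelial genes went the opposite way, with 0 of 6 higher in D than in F and 6 of 6 higher in E than in B. Alveolar type 2 genes summed to 47537 CPM in D, 34355 in F, 57696 in B and 37678 in E, which set B and D above F and E. The 5 alveolar type 1 genes summed to 1613 CPM in D, 838 in F, 1560 in B and 940 in E. D was highest for 5 of them and F lowest for 4. The order of their sum from high to low (D, B, E, F) was also that of the replication sum. Of the 8 alveolar macrophage genes, D was lowest for 7 and E highest for 7, and the median log2 fold change was 0.86. Of these genes 2 were separated higher in transgenic libraries, against 11.9% of all genes. Car4, at 147 CPM in D, 226 in F, 104 in B and 185 in E, was the most abundant of them, and the list summed to 171, 310, 162 and 321 CPM in the same order. That sum was thus mostly Car4, whose order from high to low (F, E, D, B) was also that of the endothelial sum. The 7 erythroid genes summed to 52.98 CPM in D, 18.5 in F, 25.8 in B and 14.5 in E. Leukocyte genes did follow genotype: 5 of 6 were separated higher in transgenic libraries, against 11.9% of all genes. The list summed to 293 CPM in D, 332 in F, 356 in B and 408 in E. The 3 basal cell genes summed to at most 1.07 CPM in any library. Eif2s3y, Kdm5d, Uty and Ddx3y, which lie on the Y chromosome, were highest in D. Relative to D their sum was 47.5% in F, 0.554% in B and 9.0% in E. Both controls thus lay above both transgenic libraries, so differences of sex and of genotype cannot be told apart here. With this share in the fit the median log2 fold change was 0.53 for replication and 0.33 for mitotic members, and all 35 lay above 0, but 0 passed the adjusted threshold. Because the share itself separated by genotype, that fit cannot set sex apart from genotype, and no conclusion is drawn from the shift.

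The rest of the cell cycle machinery behaved in the same range. In the list of origin licensing and replisome genes 0 of 39 passed in either direction (median log2 fold change -0.03), and D lay above F in 38 of 39. Timeless, of the fork protection complex, had the smallest p (log2 fold change -0.19, SE 0.12), followed by the GINS subunit gene Gins3 (-0.23, SE 0.18). Of these 39 genes 2 were separated higher and 2 lower, where 11.9% of all genes were separated higher and 12% lower. Of 13 nucleotide supply genes 0 passed (median 0.03), with D above F in 12. Impdh2, of guanine nucleotide synthesis, had -0.14 (SE 0.11). Of 43 kinetochore, spindle and cytokinesis genes 0 passed (median 0.00), 3 were separated higher and 0 lower, and E lay above F in 43 of 43. Its leading genes were the condensin subunit gene Ncaph (-0.20, SE 0.15), the kinesin gene Kif18a (0.22, SE 0.17) and Hmmr (0.17, SE 0.15).

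The genes that decide on entry to the cycle had a median log2 ratio of D to F of 0.09. Of 26 G1 cyclin, kinase, E2F, pocket protein and MuvB genes 0 passed (median 0.02), 4 were separated higher and 4 lower, and D lay above F in 19. Among all genes 11.9% were separated higher and 12% lower, so such counts, here and below, are read beside those shares. Ccnd1, cyclin D1, stood at 353 CPM in D, 370 in F, 301 in B and 338 in E (log2 fold change -0.18, SE 0.13). Ccnd3 stood at 112, 105, 95.6 and 102 CPM (-0.14, SE 0.10). Ccnd2, the other D-type cyclin, stood at 133, 166, 135 and 144 CPM (-0.10, SE 0.14). The transgenic libraries lay below both controls for Ccnd1 and Ccnd3 and overlapped with them for Ccnd2, and none of these genes passed the test. Of 20 inhibitor and p53 target genes 0 passed (median -0.03), with 1 separated higher, the p53 target Ccng1 (0.20, SE 0.13), and 2 lower, Trp53 (-0.14, SE 0.11) and Cdkn2b (-0.14, SE 0.13). Cdkn1a, the inhibitor p21, stood at 55.1 CPM in D, 68.9 in F, 58.5 in B and 52.7 in E. It was 1 of 4 genes among these 20 that were highest in F, and it was lowest in E.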

How the data were processed

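RNA of 4 mouse lung libraries was isolated with RNeasy columns and polyadenylated RNA was sequenced, per the labels' protocols. TopHat2 version 2, Bowtie version 1, featureCounts version 1 and the builds mm10 and GRCm38 are named in the submitters' processing notes. The sources used here do not give the annotation release, strand setting or treatment of multi-mapping reads, so overlapping genes may share reads. The authors deposited whole-number counts of reads per gene, not normalized, and RPKM values scaled to totals of which the counts made up 80.3% to 82.8%. The deposited RPKM values were used only to compare levels between genes. All pairs of libraries differed beyond sampling noise (chi-square per gene 19.5 or more).

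Of 43346 genes, 42462 identifiers matched a GENCODE M21 symbol. Low counts were removed with filterByExpr (minimum count 10, minimum total 15), libraries were scaled by TMM, and CPM values use the scaled totals. edgeR 4.0.16 (R 4.3.3, quasi-likelihood test with the legacy setting) compared 2 transgenic with 2 control libraries without covariates, with Benjamini-Hochberg adjustment over 20872 genes at 0.05. SEs are the log2 fold change over the root of F. Alternatives used DESeq2 1.42.0, limma 3.58.1 (voom), other scalings and filters, covariates, and each library left out. The scripts were tested on simulated data. Members and lists were chosen with earlier results of these data known. All members are named. 1 marker gene is not reported here. Library values are written out for the 6 members with the smallest p and the 3 with the highest RPKM in each group, and for Mki67, Top2a, Mcm2, Ccne1 and Ccne2. In each further list the genes with the smallest p are named. E2f1, Ccng1, Trp53, Cdkn2b and Cdkn1a were written out after their values were seen.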

Additional observations from a re-analysis of the deposited data

How the results depend on the processing

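Under every alternative run 0 members passed an adjusted p of 0.05, and with 2 libraries per genotype the intervals leave room for differences of the sizes given above. The number of genes called was 0 under the other scalings, filters, limma-voom and both covariate fits, and 1 with DESeq2; with 1 library left out it ran from 0 to 15. Leaving out 1 library moved the median log2 fold change from -0.157 to 0.251 for replication members and from -0.141 to 0.158 for mitotic members. The number of members separated then ran from 2 to 27 higher and from 0 to 26 lower, where groups of 1 and 2 libraries separate more easily. With the lone library of a genotype assumed to vary like the others, the sign of 16 of 16 replication and 14 of 19 mitotic members turned when a library was left out; the ranges were Mcm2 -0.243 to 0.263, Mcm3 -0.161 to 0.235, Mcm4 -0.0864 to 0.253, Mcm5 -0.209 to 0.374, Mcm6 -0.247 to 0.329, Mcm7 -0.196 to 0.233, Rrm1 -0.154 to 0.248, Rrm2 -0.115 to 0.199, Tyms -0.0984 to 0.399, E2f1 -0.307 to 0.414, Pcna -0.166 to 0.18, Ccne1 -0.264 to 0.218, Ccne2 -0.263 to 0.0891, Cdc6 -0.238 to 0.386, Cdt1 -0.152 to 0.447, Gins2 -0.0303 to 0.106, Top2a -0.141 to 0.177, Ccna2 -0.172 to 0.119, Ccnb1 -0.201 to 0.341, Cdk1 -0.326 to 0.215, Bub1 -0.12 to 0.244, Bub1b -0.111 to 0.212, Aurka -0.296 to 0.00981, Plk1 -0.199 to 0.0687, Birc5 -0.196 to 0.199, Kif11 -0.069 to 0.161, Kif20a -0.168 to 0.094, Tpx2 -0.154 to 0.131, Ube2c -0.377 to 0.0871 and Cdc20 -0.109 to 0.11. The sign did not turn for Cenpe, Cenpf, Mki67, Ccnb2 or Aurkb. With the Y-linked sum as a covariate the medians were 0.528 and 0.327, and the values that turned were 0.616 for Mcm2, 0.354 for Ccne2, 0.387 for Ccna2, 0.139 for Ccnb2, 0.64 for Cdk1, 0.289 for Aurka, 0.0662 for Aurkb, 0.29 for Plk1, 0.544 for Birc5, 0.182 for Kif20a, 0.327 for Tpx2, 0.422 for Ube2c and 0.312 for Cdc20; the cause was not tested. The other turns were of values near 0: Tpx2 (0.000617 with DESeq2 size factors, 0.00597 with library sizes alone, 0.00065 with DESeq2, 0.00182 with limma-voom), Cdc20 (0.00187 with library sizes alone, 0.0024 with limma-voom), Birc5 (0.00563 with limma-voom), and Mcm2 (0.00531 with a term that sets B and D apart, 0.00547 with limma-voom). Without a filter Mcm7, E2f1 and Ccne1 gave -0.00572, -0.000323 and -0.00553, and with a stricter one (1 CPM in 2 libraries, total 20) -0.00678, -0.000607 and -0.00459; Ccne1 gave -0.00923 with the term for B and D and -0.00194 with limma-voom. The legacy = FALSE fit, added after the data were seen, turned 0 members. No paired analysis was possible because the labels give the libraries letters and no replicate numbers. The term that sets B and D apart from E and F is not a pairing from the labels; with it 0 genes were called and the medians were 0.0399 and -0.0015.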
